A study of Arabidopsis thaliana with 20 samples.

Results

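The cysteine-rich receptor-like kinases (CRKs) of Arabidopsis thaliana, the thale cress, were examined in inflorescences of plants that overexpress or lack genes for DVL/RTFL peptides. The members were the 39 listed CRK genes, taken by locus identifier from a table of 37336 genes, and all 39 were found in it. Of these, 19 formed a tandem cluster on chromosome 4 (AT4G23130 to AT4G23320, 12117491 to 12191704, TAIR10.1), and 20 lay elsewhere. DVL/RTFL genes encode small plant peptides, and their overexpression is known to alter the shape of organs. One overexpression line was dvl1-1D, whose dominant allele raises DVL1. The other, labelled 35S-.DVL8.2 and called 35S:DVL8 here, carried DVL8 behind the cauliflower mosaic virus 35S promoter, which is active in most plant tissues. One quintuple mutant, called the dvl1 quintuple, carried dvl1, dvl8, dvl11, rtfl11 and dvl19. The other, called the rtfl9 quintuple, carried dvl8, dvl11, rtfl9, rtfl11 and dvl19, so that 4 of its 5 mutated genes were shared with the dvl1 quintuple. The wild type was Columbia, labelled Col.0. Each group had 3 libraries. The labels give no plant age, and they describe the flower stages collected in different words, so the mix of stages is uncertain.

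CRKs are receptor kinases of the plasma membrane. Outside the cell they carry DUF26 domains, which hold conserved cysteines, and inside it a serine/threonine kinase domain. Many are known to be induced by salicylate, pathogens or reactive oxygen, and several act in immune signalling, in control of the oxidative burst or in cell death. Their ligands are mostly not known, and most of this knowledge comes from leaves and seedlings, not from flowers.

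The label of the family was checked on coding sequence from the reference. The DUF26 pattern, a cysteine codon, 8 other codons, a cysteine codon, 2 other codons and a cysteine codon, was found in 39 of 39 members. It occurred in 2 copies in 35 members, in 1 copy in CRK24 and CRK27, in 3 copies in CRK23 and in 4 copies in CRK17. The last 2 copies of CRK17 are letter for letter those of CRK16, a gene whose annotated exons overlap those of CRK17. The copies of CRK2 (AT1G70520) and CRK10 (AT4G23180), the members with the highest mean level outside and inside the cluster, are shown 5′ to 3′ as DNA, with the cysteine codons in capitals. The residues between the cysteines differ between copies and genes.
CRK2, copy towards the start: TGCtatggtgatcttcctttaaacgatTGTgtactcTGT
CRK2, copy towards the kinase domain: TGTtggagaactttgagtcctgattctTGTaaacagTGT
CRK10, copy towards the start: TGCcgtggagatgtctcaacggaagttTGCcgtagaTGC
CRK10, copy towards the kinase domain: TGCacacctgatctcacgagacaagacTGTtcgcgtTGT

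Coding sequences of the members were alike enough to matter for counting. Identity to the closest other member was between 69.1% (CRK3 and CRK42) and 90.3% (CRK23 and CRK20) over the aligned bases. Stretches of 100 exon bases that occur elsewhere in the genome made up 11.02% of CRK6, 9.96% of CRK8, 10.7% of CRK13 and 11.9% of CRK22. Values of these 4 genes are therefore uncertain. CRK16 and CRK17 overlap by 1190 bases on the same strand, of which 776 are annotated as exon in both. CRK28 and CRK29 overlap by 470 bases on the same strand, all exon in both, and CRK29 also overlaps AT4G03065 by 305 bases on the same strand, of which 23 are exon in both. Reads there may have been left uncounted or given to either gene. CRK10 and CRK11 overlap by 32 bases on opposite strands, and CRK19, CRK25 and CRK42 overlap genes on the other strand. The counting ignored strand, so reads of such partners cannot be told apart.

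Promoters of CRK2, CRK11 (AT4G23190), CRK18 (AT4G23260) and CRK41 (AT4G00970) are printed because these genes passed the test in the most comparisons below, with ties broken by the smaller p. The windows are the 300 bases before the annotated start of each gene in TAIR10.1, written 5′ to 3′ on the gene's strand. Capitals mark TTGAC on either strand, and on the reverse strand the core reads GTCAA. This is the core of the W-box, the element that WRKY transcription factors bind.
CRK2 (chr1:26587629-26587928, minus strand): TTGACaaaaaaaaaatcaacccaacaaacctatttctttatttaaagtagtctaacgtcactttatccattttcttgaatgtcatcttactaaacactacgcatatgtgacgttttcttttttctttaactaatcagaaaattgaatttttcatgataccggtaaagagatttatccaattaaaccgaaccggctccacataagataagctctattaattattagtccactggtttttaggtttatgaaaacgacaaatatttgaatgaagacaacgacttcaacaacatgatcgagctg
CRK11 (chr4:12143859-12144158, minus strand): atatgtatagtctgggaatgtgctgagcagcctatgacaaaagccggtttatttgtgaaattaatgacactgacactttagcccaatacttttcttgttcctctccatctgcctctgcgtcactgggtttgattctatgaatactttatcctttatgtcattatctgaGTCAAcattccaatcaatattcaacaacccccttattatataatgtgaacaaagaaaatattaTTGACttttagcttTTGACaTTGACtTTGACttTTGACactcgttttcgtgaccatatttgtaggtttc
CRK18 (chr4:12170081-12170380, minus strand): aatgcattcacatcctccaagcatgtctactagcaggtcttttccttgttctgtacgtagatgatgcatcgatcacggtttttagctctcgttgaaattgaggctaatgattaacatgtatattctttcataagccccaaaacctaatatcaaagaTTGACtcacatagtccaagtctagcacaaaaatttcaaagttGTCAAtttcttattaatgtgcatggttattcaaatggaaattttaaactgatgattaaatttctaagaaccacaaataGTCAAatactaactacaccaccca
CRK41 (chr4:418027-418326, plus strand): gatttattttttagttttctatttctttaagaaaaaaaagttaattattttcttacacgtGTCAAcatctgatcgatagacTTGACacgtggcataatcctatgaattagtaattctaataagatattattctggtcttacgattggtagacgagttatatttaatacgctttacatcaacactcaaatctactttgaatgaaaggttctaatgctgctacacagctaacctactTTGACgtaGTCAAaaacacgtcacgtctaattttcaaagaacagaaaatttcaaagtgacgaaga

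CRK11 had 6 such cores, CRK41 had 4, CRK18 had 3 and CRK2 had 1. In CRK11, 5 of the 6 cores lay within 69 bases of the start, at 69, 55, 49, 43 and 36 bases before it. Over the family, 29 of 39 windows (74.4%) held at least 1 core, where 50.4% of 27443 windows of protein-coding genes did. The share was 14 of 19 in the cluster and 15 of 20 outside it. The related core TGACG of the as-1 element, which can overlap TTGAC, was found in 12 of 39 windows (30.8%), against 21.3% of all windows. It overlapped a TTGAC core at 1 place in CRK41 and at none in CRK2, CRK11 and CRK18. A match is a description of the letters only, and binding of a factor was not measured.

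Levels are given as RPKM, a read count scaled by gene length and by the reads of the library, as the authors deposited them. Reads assigned to genes numbered 22471893 to 36589877 per library. DVL1 was between 524.7 and 611.8 RPKM in dvl1-1D libraries and at most 0.0881 RPKM in any other library. DVL8 was between 151.7 and 173.4 RPKM in 35S:DVL8 libraries and at most 0.238 RPKM elsewhere. Loss of the mutated genes could not be checked from levels, since RTFL9 and DVL19 were listed at 0 in every library and DVL11 still had reads, at 1.84 to 2.24 RPKM for the dvl1 quintuple and 0.992 to 1.46 RPKM for the rtfl9 quintuple, against 1.74 to 2.49 RPKM in wild type. Floral organ and meristem markers summed to 398.9 to 489.5 RPKM per library and none of the 8 was at 0. Library 2 of 35S:DVL8 and library 4 of the rtfl9 quintuple differed most from the rest of their groups, with 87 and 61 genes more than 2-fold away from both other libraries, against 5 to 39 genes in the other libraries.

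CRK genes were a mixture of moderately and barely detected transcripts in the inflorescence. Mean level over the 15 libraries ran between 0.0145 RPKM for CRK32 and 12.4 RPKM for CRK10, and 9 cluster genes and 8 others reached a mean of 1 RPKM. In the cluster, CRK10 made up 30.6% of the summed level. Outside it, CRK2 made up 26.4%. All 39 genes had reads, between 13 for CRK33 and 11938 for CRK10 over all libraries. A filter of at least 1 RPKM in at least 3 libraries left 20 members for testing, 11 in the cluster and 9 outside it. Of these, 12 were at 1 RPKM or more in every library, and 3 passed only because of the overexpression lines, so counts over the 20 are not counts over the family.

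**Figure D1:**
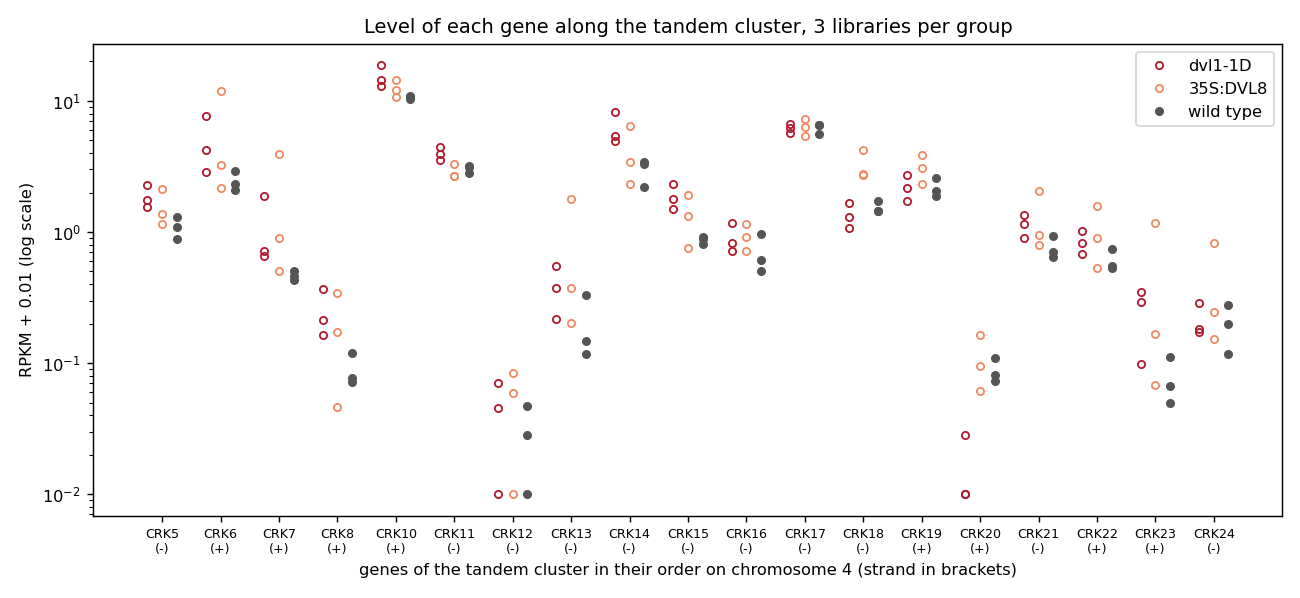
Level of each gene of the tandem cluster in its order on chromosome 4, as RPKM + 0.01 on a log axis, with a point for each of 3 libraries of dvl1-1D, 35S:DVL8 and wild type. CRK10 lies highest, with 13.01 to 18.7 RPKM in dvl1-1D, and CRK12 and CRK20 lie lowest, under 0.2 RPKM in each library plotted.

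Neighbours in the cluster differed widely in level. CRK10, whose gain-of-function allele is known to cause dwarf growth and active defence, averaged 15.4 ± 2.93 RPKM in dvl1-1D and 10.7 ± 0.250 RPKM in wild type (SD, n = 3 each). CRK12, the second gene after it, was at 0.0321 ± 0.0305 RPKM in dvl1-1D and 0.0183 ± 0.0185 RPKM in wild type. The order of mean levels over all libraries was CRK10 (12.4 RPKM), CRK2 (10.3), CRK3 (8.49), CRK17 (6.27) and CRK42 (5.53), and then CRK29 (4.38) and CRK14 (3.99). In wild type, CRK10 (10.4 to 10.9 RPKM) lay above CRK2 (8.39 to 9.62 RPKM), while CRK2 and CRK3 (7.81 to 8.27 RPKM) also did not overlap. CRK17 (5.61 to 6.49 RPKM) and CRK42 (5.74 to 5.92 RPKM) overlapped.

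In dvl1-1D, where DVL1 is high, the CRK genes that passed the test were all above wild type. Of the 20 tested members, 7 rose and 0 fell (limma on log2(RPKM + 1), Benjamini-Hochberg adjusted p under 0.05 over 20223 genes). In the same comparison 16.7% of all tested genes rose and 30.8% differed in either direction. By unadjusted p under 0.05, 10 members were higher and 1 was lower, and 41.3% of all tested genes had such a p. The cluster gave 5 of 11 and the other members 2 of 9. The median log2 fold change of the 20 was 0.29, against 0.02 over all tested genes. Fitted by voom on reads recovered from the RPKM, these medians were 0.541 and 0.03. Over all 39 members, the mean RPKM was higher in dvl1-1D for 32, where 54.1% of all genes above 0 were higher. In bulk inflorescences, more RNA per cell and more cells of a type cannot be told apart.

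**Figure D2:**
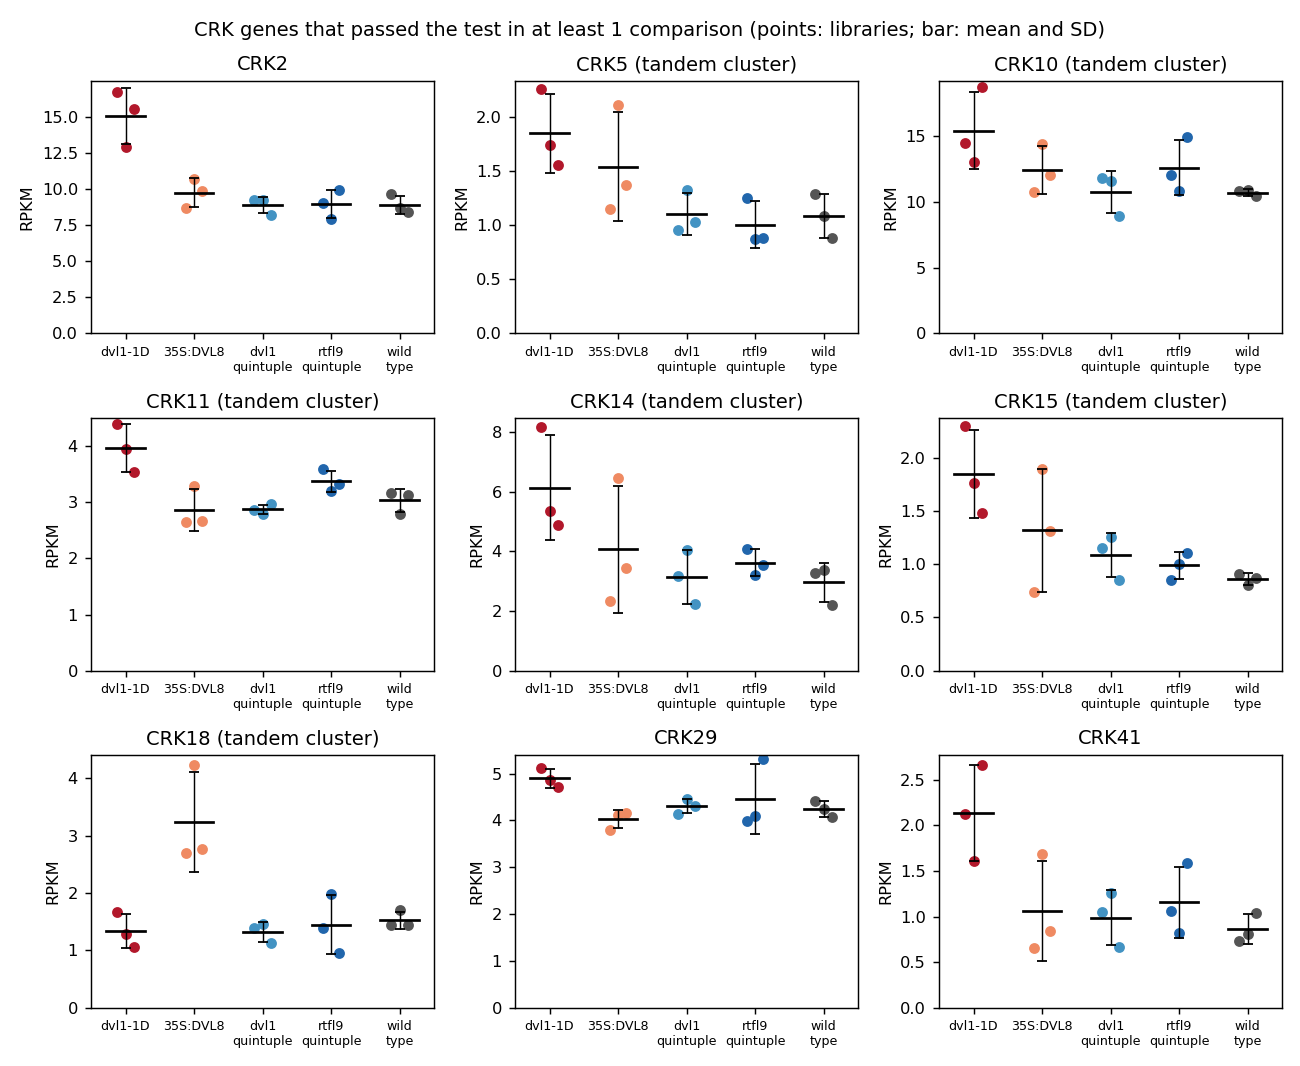
RPKM of the 9 CRK genes that passed the test in at least 1 comparison, with a point for each library, a wide bar for the mean and a thin bar for the SD, for each of the 5 groups, wild type on the right. CRK2 is above 12 RPKM in each dvl1-1D library and under 11 in each other library, and CRK18 is at 2.70 RPKM or more only in 35S:DVL8.

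CRK2, which is known to phosphorylate the NADPH oxidase RBOHD and to be needed for normal growth, had the smallest p. Its levels were 16.7, 12.9 and 15.6 RPKM in dvl1-1D, against 9.62, 8.70 and 8.39 RPKM in wild type. The 3 dvl1-1D libraries lay above all 12 others. The log2 fold change was 0.69 ± 0.10 (adjusted p = 2e-04), with a 95% interval of 0.48 to 0.90. The 35S:DVL8 libraries had 8.69, 10.7 and 9.86 RPKM. The dvl1 quintuple had 9.22, 9.21 and 8.22 RPKM, and the rtfl9 quintuple had 9.01, 7.95 and 9.91 RPKM. CRK2 kept its call with each library left out in turn and under every other setting tried for this comparison.

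CRK41, for which few roles are known, rose outside the cluster as well. It was at 2.13, 1.61 and 2.66 RPKM in dvl1-1D, against 0.726, 0.809 and 1.04 RPKM in wild type, and these groups did not overlap. Its log2 fold change was 0.74 ± 0.19 (adjusted p = 0.00995). Levels in the other groups were 0.656, 1.68 and 0.841 RPKM in 35S:DVL8, 1.05, 1.25 and 0.666 RPKM in the dvl1 quintuple, and 1.06, 0.819 and 1.59 RPKM in the rtfl9 quintuple. Library 2 of 35S:DVL8 thus overlapped dvl1-1D.

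In the cluster, CRK14 and CRK15, which are neighbours, moved most among the genes that passed. CRK14 was at 8.16, 5.36 and 4.89 RPKM in dvl1-1D and at 3.29, 3.39 and 2.21 RPKM in wild type, a log2 fold change of 0.84 ± 0.26 (adjusted p = 0.0236). CRK15 was at 2.30, 1.76 and 1.48 RPKM in dvl1-1D and at 0.910, 0.801 and 0.875 RPKM in wild type, a change of 0.60 ± 0.16 (adjusted p = 0.0117). Both genes were highest in library 1 of dvl1-1D. In 35S:DVL8, CRK14 had 2.32, 6.46 and 3.43 RPKM and CRK15 had 0.743, 1.90 and 1.31 RPKM, each again highest in library 2. In the quintuples, CRK14 lay between 2.23 and 4.10 RPKM and CRK15 between 0.856 and 1.26 RPKM.

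CRK10 and CRK11, which are induced by salicylate and pathogens in leaves, and CRK5, known for roles in abscisic acid responses and cell death, rose less. CRK10 was at 14.5, 13.01 and 18.7 RPKM in dvl1-1D, against 10.8, 10.9 and 10.4 RPKM in wild type (log2 fold change 0.47 ± 0.14, adjusted p = 0.0206). CRK11 was at 4.41, 3.96 and 3.54 RPKM in dvl1-1D, against 3.17, 2.79 and 3.14 RPKM in wild type (0.30 ± 0.09, adjusted p = 0.0177). CRK5 was at 2.26, 1.74 and 1.55 RPKM in dvl1-1D, against 1.29, 1.09 and 0.880 RPKM in wild type (0.45 ± 0.15, adjusted p = 0.0335). None of these 3 genes overlapped between the groups. In 35S:DVL8 their levels were 10.8, 14.4 and 12.01 RPKM for CRK10, 2.65, 3.30 and 2.66 RPKM for CRK11, and 1.15, 2.11 and 1.37 RPKM for CRK5. In the quintuples, CRK10 ran between 8.92 and 14.9 RPKM, CRK11 between 2.80 and 3.59 RPKM and CRK5 between 0.875 and 1.32 RPKM.

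The other 13 tested members did not pass in dvl1-1D. CRK3, the neighbour of CRK2 on chromosome 1, was at 9.29, 9.67 and 9.69 RPKM in dvl1-1D and at 8.08, 8.27 and 7.81 RPKM in wild type (0.22 ± 0.08, adjusted p = 0.0606). CRK42 was the one tested member with lower, non-overlapping libraries, at 5.20, 4.91 and 5.36 RPKM in dvl1-1D and 5.92, 5.74 and 5.92 RPKM in wild type (-0.16 ± 0.06, adjusted p = 0.0787). CRK17, named EMB1290 in the reference for an embryo-defective mutant, was at 6.61, 5.71 and 6.22 RPKM in dvl1-1D and 6.49, 5.61 and 6.49 RPKM in wild type, and its change of 0.00 had a 95% interval of -0.21 to 0.20. Changes of CRK36, a partner of the immune kinase BIK1, and of CRK40 were 0.45 and 0.56, with adjusted p of 0.0924 and 0.113. CRK6, known with CRK7 for responses to extracellular oxidative stress, had a change of 0.70 with an interval of -0.17 to 1.56. The remaining members lay between -0.12 for CRK18 and 0.28 for CRK21. In all, 12 tested members lay wholly above wild type and 1 wholly below, where 26.2% and 20.9% of tested genes did. CRK34, among the 12, passed the filter only because of the overexpression lines.

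Single libraries decided part of this count. Without library 1 of dvl1-1D, 3 members passed, CRK2, CRK10 and CRK41, and 12.7% of all tested genes rose. CRK10 in turn lost its call without library 3 of dvl1-1D (adjusted p = 0.0928) or library 3 of wild type (adjusted p = 0.0603). CRK5 lost its call without library 1 or 2 of dvl1-1D or library 2 or 3 of wild type, and CRK11 also without library 2 of wild type. Without library 3 of wild type, 4 passed, CRK2, CRK11, CRK15 and CRK41, where 12.7% of all tested genes rose and 24.2% differed. With library 2 of 35S:DVL8 left out of the shared fit, 11 passed, the 7 and also CRK3, CRK6, CRK36 and CRK40, and the share of all tested genes that rose was then 17.1%. Median-of-ratios scaling kept all 7 higher calls and added CRK42 as lower, where 13.5% of all tested genes rose. Quantile normalization kept 5, without CRK5 and CRK11, and added CRK42 as lower, where 13.7% rose.

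**Figure D3:**
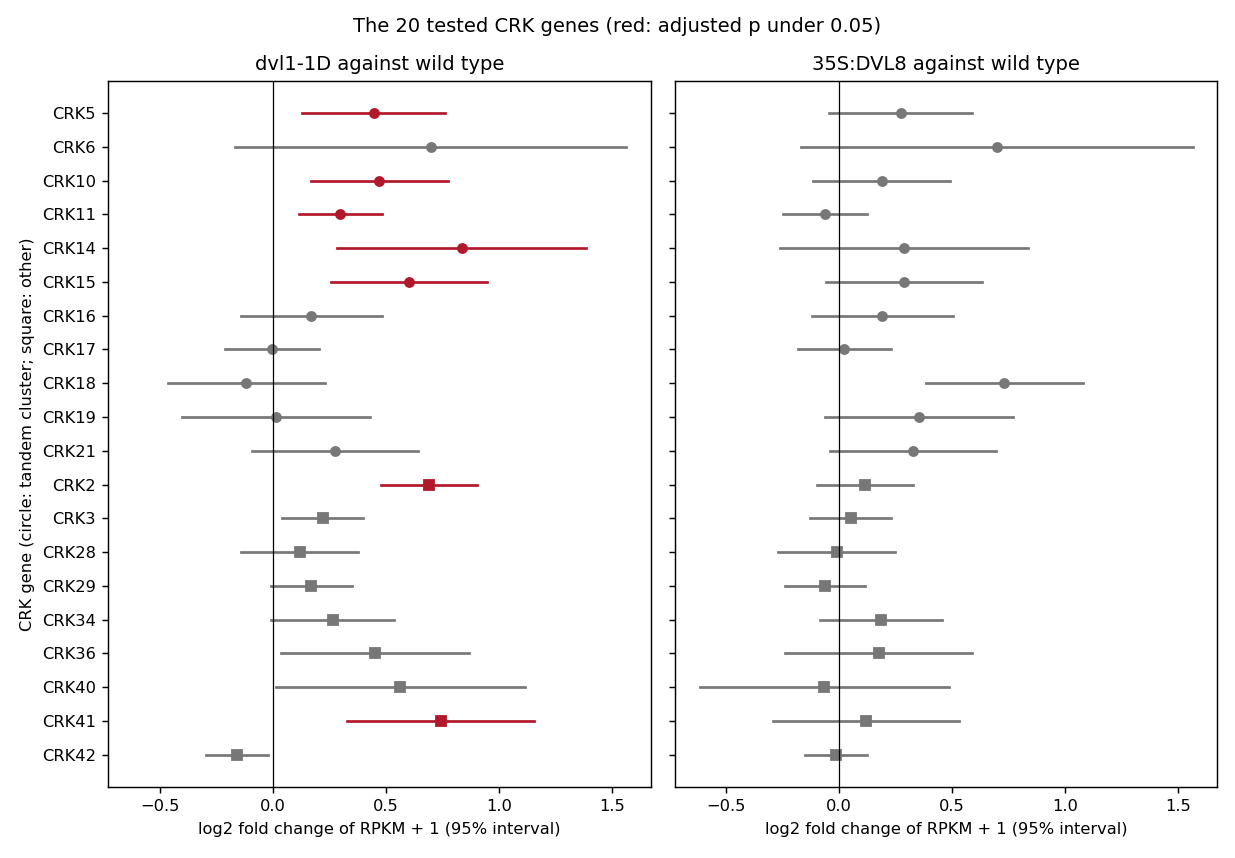
Log2 fold change of RPKM + 1 against wild type with its 95% interval for the 20 tested CRK genes, dvl1-1D on the left and 35S:DVL8 on the right, with circles for the tandem cluster, squares for the other members and red for an adjusted p under 0.05. In dvl1-1D 7 genes are red, between 0.30 and 0.84, and in 35S:DVL8 0 are.

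The comparison of 35S:DVL8 with wild type asked the same of plants with high DVL8. Here 0 of the 20 tested members passed by limma (1 at an unadjusted p under 0.05, and 1 with voom on recovered reads), where 0.138% of all tested genes passed and 10.5% had such an unadjusted p. The mean RPKM was above that of wild type for 30 of 39 members, 18 of them in the cluster, where 46.5% of all genes above 0 were higher. The median change of the members was 0.18, against -0.004 over all tested genes. CRK18 came closest, at 2.70, 4.23 and 2.77 RPKM in 35S:DVL8, against 1.43, 1.70 and 1.44 RPKM in wild type (0.73 ± 0.16, adjusted p = 0.077). It did not overlap wild type. Voom on the recovered reads gave CRK18 an adjusted p of 0.0377 and array weights gave 0.036. Without library 1 of 35S:DVL8 it was 0.0436, and over the settings tried it ran up to 0.25, without library 2 of wild type.

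Library 2 of 35S:DVL8 stood above the other libraries of its group for most CRK genes. This library was the highest of all 15 for 18 of 39 members, and for 8 of the 20 tested members, where it was highest for 5.47% of tested genes. It lay above both other 35S:DVL8 libraries for 18 of the 20 tested members, against 34.9% of tested genes. It was at least 2 times the higher of these libraries for 4 of the 20, against 0.475% of tested genes. CRK21, among these 4, and CRK34, among the 18, reached 1 RPKM in 3 libraries only with library 2 counted. They were thus tested partly because they were high there. Of the 33 members with at least 20 reads in the group, 10 were at least 2 times the higher of the other libraries. These were 7 of 17 in the cluster and 3 of 16 outside it. This set includes members under the filter, and no matching share over all genes was counted. CRK6 had 2.17, 11.8 and 3.23 RPKM in 35S:DVL8 libraries 1, 2 and 3, CRK7 had 0.497, 3.91 and 0.891 RPKM, and CRK23 had 0.0586, 1.16 and 0.156 RPKM. CRK13, whose overexpression is known to raise salicylate, had 0.192, 1.77 and 0.363 RPKM.

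Salicylate marker genes moved with the same library. PR1, the classic salicylate marker, was at 33.7 RPKM in library 2 of 35S:DVL8 and at most 0.671 RPKM in any other library. BGL2, also called PR2, was at 98.7 RPKM there, and PR5 at 144.2 RPKM. Levels over the salicylate and defence list of 14 genes summed to 474.8 RPKM in that library and to 157.5 to 257.6 RPKM in the other 14, of which library 1 of dvl1-1D was the highest. None of the 14 genes was at 0 in any library. The part of these differences in the CRK values was not tested. Without library 2, the median change of the tested members in 35S:DVL8 was 0.01 (0.18 with it), and that of the cluster was 0.10 (0.29 with it).

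**Figure D4:**
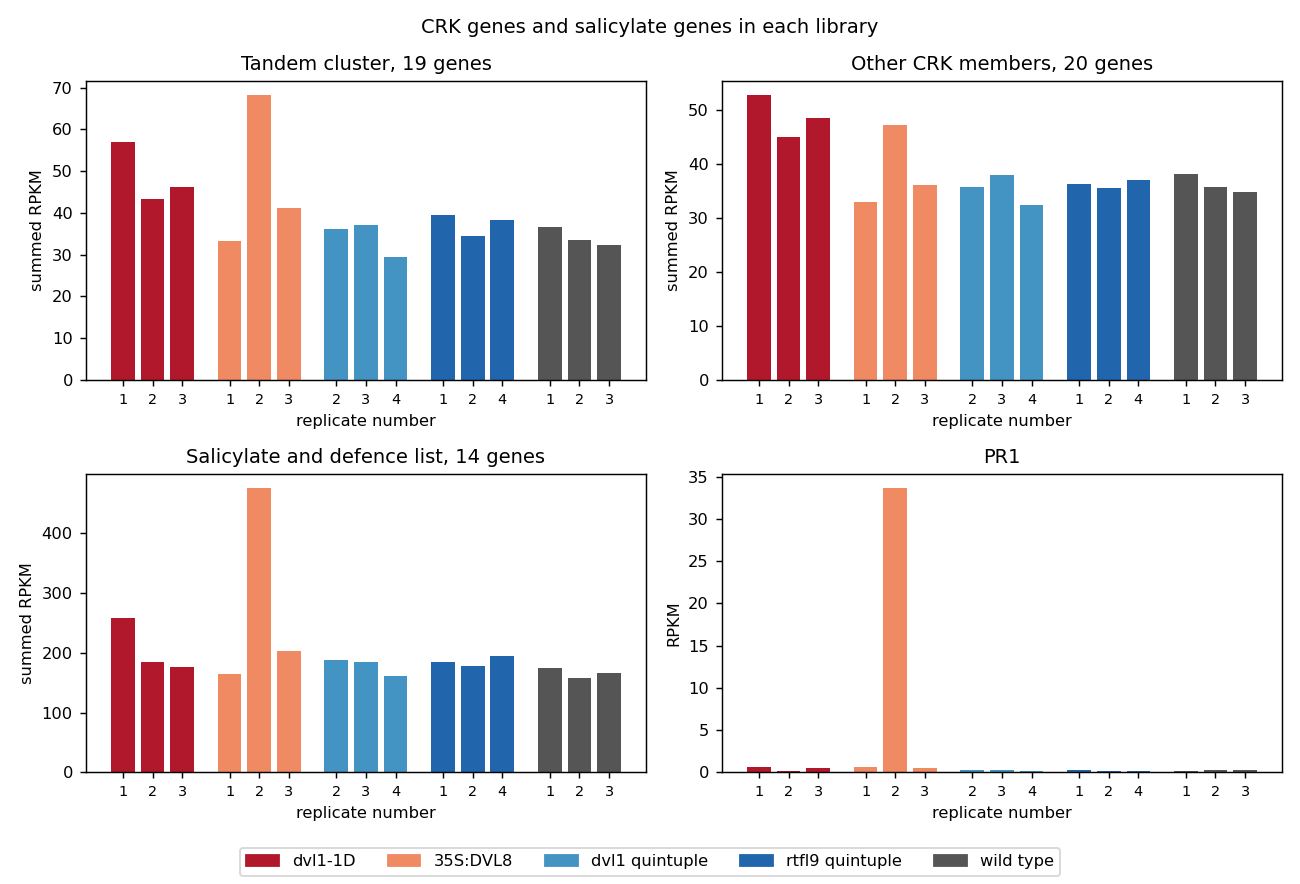
Summed RPKM of the 19 tandem cluster genes, the 20 other CRK genes and the 14 genes of the salicylate and defence list, and RPKM of PR1, with a bar for each of the 15 libraries from 0. Library 2 of 35S:DVL8 has the highest cluster sum (68.1 RPKM), the highest salicylate sum (474.8 RPKM) and PR1 at 33.7 RPKM.

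Cluster and other members were compared by their summed level. The cluster summed to 48.8 ± 7.17 RPKM in dvl1-1D and 47.5 ± 18.3 RPKM in 35S:DVL8 (SD, n = 3 each). For the dvl1 quintuple the sum was 34.2 ± 4.17 RPKM, for the rtfl9 quintuple 37.4 ± 2.70 RPKM and for wild type 34.1 ± 2.23 RPKM. The other members summed to 48.8 ± 3.86 RPKM in dvl1-1D and 38.7 ± 7.45 RPKM in 35S:DVL8. For the dvl1 quintuple the sum was 35.4 ± 2.84 RPKM, for the rtfl9 quintuple 36.3 ± 0.780 RPKM and for wild type 36.3 ± 1.73 RPKM. Both sums lay above all wild-type libraries in each dvl1-1D library. The log2 ratio to wild type was larger in the cluster by 0.09 in dvl1-1D and by 0.38 in 35S:DVL8, and this was not tested. Single libraries of dvl1-1D gave cluster sums of 56.9, 43.3 and 46.2 RPKM. Those of 35S:DVL8 gave 33.2, 68.1 and 41.1 RPKM, so that library 1 lay inside the wild-type range of 32.2 to 36.5 RPKM. Without library 2, the difference in 35S:DVL8 was 0.20.

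**Figure D5:**
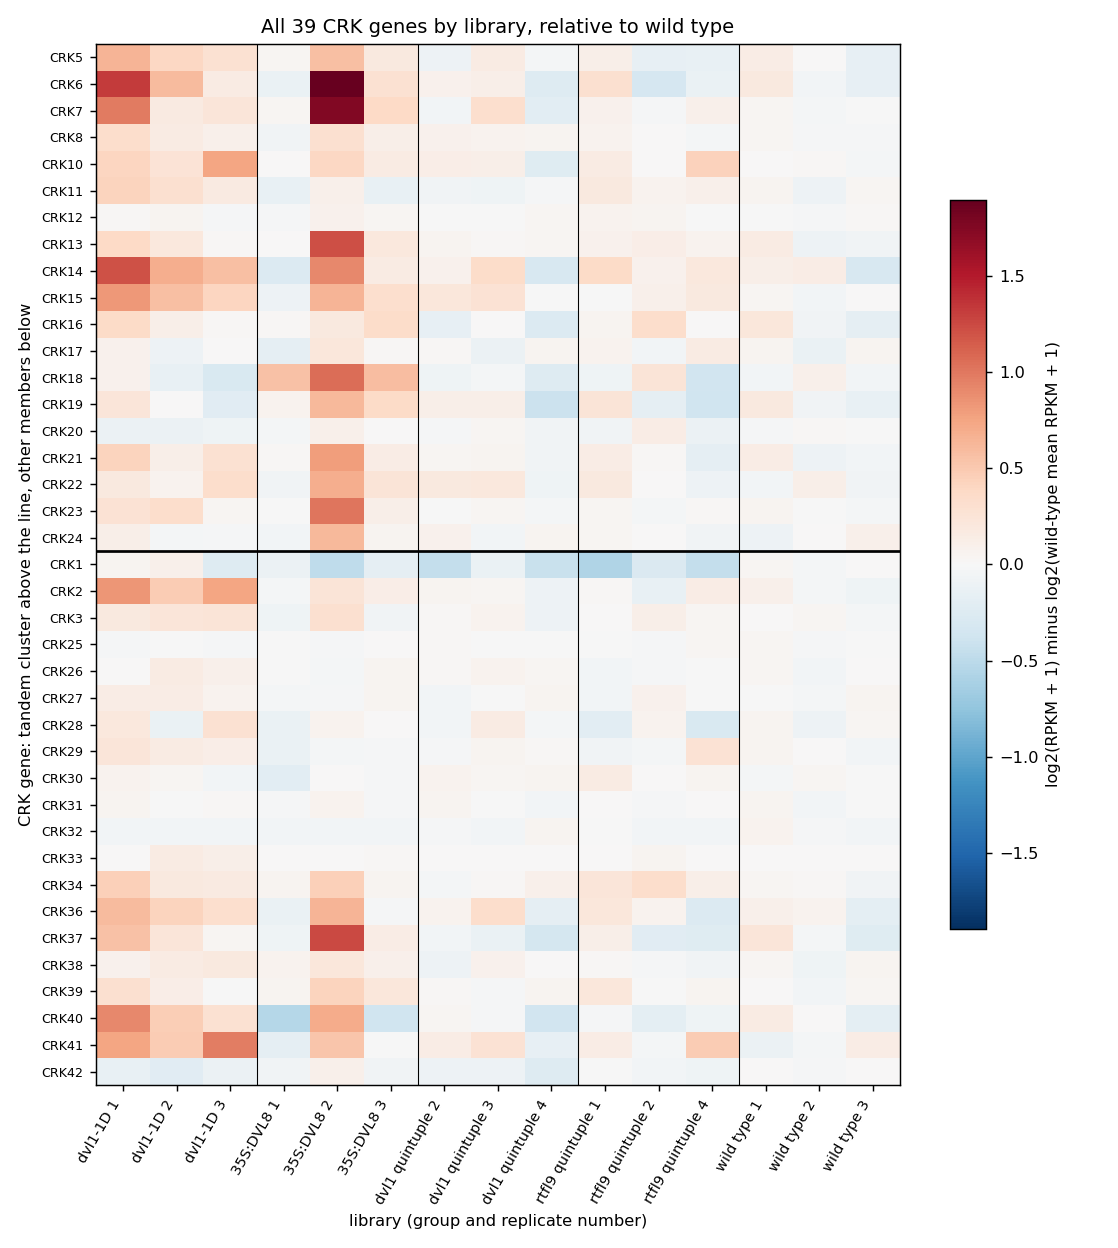
Log2(RPKM + 1) of each of the 39 CRK genes in each of the 15 libraries minus the log2 of the wild-type mean RPKM + 1, with red above and blue below wild type and the tandem cluster above the line. The column of 35S:DVL8 library 2 is highest for 18 genes and that of dvl1-1D library 1 for 9, and CRK1 is blue in the 35S:DVL8 and quintuple columns.

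Between the overexpression lines, dvl1-1D was set directly against 35S:DVL8. Of the 20 tested members 4 were higher in dvl1-1D and 1 was lower, where 18.6% of tested genes were higher, 13.8% were lower and 32.4% differed in either direction. CRK2 was higher by 0.58 ± 0.10 (adjusted p = 0.000743), CRK11 by 0.36 ± 0.09 (adjusted p = 0.00586) and CRK41 by 0.62 ± 0.19 (adjusted p = 0.0237). CRK29, encoded beside CRK28, a gene whose overexpression is known to cause cell death, was at 5.12, 4.86 and 4.72 RPKM in dvl1-1D, against 3.80, 4.12 and 4.15 RPKM in 35S:DVL8 (0.23 ± 0.08, adjusted p = 0.0449). It had 4.15, 4.46 and 4.31 RPKM in the dvl1 quintuple, 3.98, 4.08 and 5.31 RPKM in the rtfl9 quintuple, and 4.42, 4.24 and 4.06 RPKM in wild type. CRK18 was lower, at 1.66, 1.29 and 1.06 RPKM in dvl1-1D, against the 35S:DVL8 values above (-0.85 ± 0.16, adjusted p = 0.00148). CRK2, CRK11, CRK18 and CRK29 did not overlap between the lines, while CRK41 did. Without library 2 of 35S:DVL8, 9 members passed, 8 of them higher in dvl1-1D, where 28% of tested genes then differed and 15.9% were higher. Of the 5, CRK29 was the one lost then (adjusted p = 0.072), and CRK3, CRK14, CRK15, CRK36 and CRK40 were added as higher in dvl1-1D. Without library 1 or 3 of either line, 3 passed in each case, where 25.5% to 28% of tested genes then differed. CRK29 passed with none of these 6 libraries left out in turn, and CRK41 failed in 4 of the 6, with adjusted p of up to 0.0999. CRK2, CRK11 and CRK18 passed in all 6.

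The quintuple mutants were compared with wild type to ask what loss of DVL/RTFL genes does to the family. In the dvl1 quintuple 0 of 20 members passed by limma (1 at an unadjusted p under 0.05, which was CRK42, and 0 with voom), where 0.0297% of tested genes passed and 7.75% had such an unadjusted p. In the rtfl9 quintuple 0 of 20 passed (0 at an unadjusted p under 0.05 and 0 with voom), where 1.23% of tested genes passed and 15.8% had such an unadjusted p. The median change of the members was -0.002 for the dvl1 quintuple, against 0.01 over all tested genes. For the rtfl9 quintuple it was 0.03, against 0.02 over all tested genes. Intervals were narrow for CRK2 and CRK17 and wide for CRK6. The fit takes 1 spread per gene from all 5 groups, also those outside the comparison. For CRK6 the SD was 0.450 RPKM in the dvl1 quintuple, 0.774 RPKM in the rtfl9 quintuple and 0.435 RPKM in wild type, but 5.29 RPKM in 35S:DVL8. In the dvl1 quintuple the 95% interval was -0.22 to 0.21 for CRK2, -0.22 to 0.20 for CRK17 and a wide -0.87 to 0.86 for CRK6. In the rtfl9 quintuple it was -0.21 to 0.22 for CRK2, -0.15 to 0.27 for CRK17 and -0.91 to 0.82 for CRK6. Between the quintuples, dvl1 against rtfl9, 0 of 20 members passed (0 at an unadjusted p under 0.05 and 0 with voom), where 0.0148% of tested genes passed and 4.39% had such an unadjusted p.

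CRK3, CRK17 and CRK42, which are among the 5 with the highest level, passed in no comparison. In the dvl1 quintuple CRK3 had 8.16, 8.43 and 7.50 RPKM, CRK17 had 6.34, 5.64 and 6.43 RPKM, and CRK42 had 5.39, 5.44 and 4.82 RPKM. In the rtfl9 quintuple CRK3 had 8.14, 8.77 and 8.25 RPKM, CRK17 had 6.55, 5.92 and 7.05 RPKM, and CRK42 had 5.81, 5.63 and 5.45 RPKM. In 35S:DVL8 CRK3 had 7.55, 10.12 and 7.66 RPKM, CRK17 had 5.37, 7.33 and 6.34 RPKM, and CRK42 had 5.57, 6.32 and 5.52 RPKM. All 3 were thus highest within 35S:DVL8 in library 2. CRK18 had 1.38, 1.45 and 1.13 RPKM in the dvl1 quintuple and 1.397, 1.98 and 0.961 RPKM among rtfl9 quintuple libraries, which overlapped wild type.

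Both overexpression lines together were compared with both quintuples, 6 libraries on each side. Of the 20 tested members 4 were higher in the overexpression lines and 0 lower, where 14.8% of tested genes were higher and 32% differed. They were CRK2 (0.40 ± 0.07, adjusted p = 0.000891), CRK5 (0.38 ± 0.10, adjusted p = 0.0128), CRK18 (0.40 ± 0.11, adjusted p = 0.0167) and CRK15 (0.32 ± 0.11, adjusted p = 0.047). None of the 4 kept the 6 overexpression libraries wholly above the 6 quintuple libraries. CRK2 differed mainly through dvl1-1D, and CRK18 mainly through 35S:DVL8. Without library 1 of 35S:DVL8, 7 members passed, with CRK6, CRK14 and CRK21 added, where 28.4% of tested genes then differed and 13.8% were higher. CRK21 is among the 3 members that passed the filter only because of the overexpression lines. CRK15 failed in 9 of the 12 fits with 1 library left out. With the replicate number added to the fit as a block, 1 member passed, CRK2, where 22% of tested genes differed. Without library 2 of 35S:DVL8, 3 members passed, where 31.1% of tested genes then differed. Without that library and library 4 of the rtfl9 quintuple 1 passed, CRK2, where 29.3% differed.

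The 19 members under the filter had mean levels between 0.0145 and 0.862 RPKM, and 13 of them stood under 0.2 RPKM. Fitted without the filter, 1 of their 133 comparisons passed, CRK38 in both overexpression lines against both quintuples (0.14 ± 0.04, adjusted p = 0.0229). There 20.3% of all 29911 genes above 0 passed. The share was 20% in dvl1-1D against wild type and 21.3% in dvl1-1D against 35S:DVL8, where none of the 19 passed. In the remaining comparisons it was at most 0.191%. CRK38 had only 1 to 17 reads per library, 126 over all libraries, so its change is uncertain. CRK1, named RKF2 in the reference, was at 0.425, 0.799 and 0.458 RPKM in the dvl1 quintuple and 0.315, 0.620 and 0.426 RPKM among rtfl9 quintuple libraries, against 0.999, 0.895 and 0.968 RPKM in wild type. It lay below wild type in 35S:DVL8 too, at 0.801, 0.404 and 0.735 RPKM, but not in dvl1-1D, at 1.02, 1.09 and 0.648 RPKM. Its changes without the filter did not pass (adjusted p = 0.592 in 35S:DVL8, 0.597 for the dvl1 quintuple and 0.164 for the rtfl9 quintuple). CRK1 was singled out after its values were seen. CRK20 was at 0, 0 and 0.0183 RPKM in dvl1-1D and at 0.0625, 0.0997 and 0.0710 RPKM in wild type, too few reads to tell a level from its error, with 14 reads over the wild-type group. CRK33 had 0 reads in wild type and CRK32 had 0 in dvl1-1D and 35S:DVL8.

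Related gene lists were counted in dvl1-1D against wild type. Of 12 tested pattern receptor and oxidative burst genes 7 rose and 0 fell, with a median of 0.30, where 16.7% of all tested genes rose and 30.8% differed in either direction. FLS2, the flagellin receptor, averaged 12.3 RPKM in dvl1-1D and 5.03 RPKM in wild type (1.14 ± 0.09, adjusted p = 3.33e-06). SOBIR1, a co-receptor of receptor-like proteins, averaged 17.8 RPKM in dvl1-1D and 8.34 RPKM in wild type (0.97 ± 0.25, adjusted p = 0.0103), and the NADPH oxidase gene RBOH F rose by 0.34 ± 0.07 (adjusted p = 0.00152). The count was 3 of 12 without library 1 of dvl1-1D, where 12.7% of all tested genes then rose. In 35S:DVL8 0 of the 12 passed by limma (3 at an unadjusted p under 0.05, counted in either direction), with a median of 0.07. There 0.138% of all tested genes passed and 10.5% had such an unadjusted p. Of 13 tested salicylate and defence genes 4 rose and 2 fell in dvl1-1D, and without library 1 of dvl1-1D 0 rose and 2 fell. Without library 3 of wild type 1 rose and 2 fell, where 12.7% of all tested genes rose and 24.2% differed. Without library 2 of 35S:DVL8 in the shared fit 7 rose and 2 fell, where 17.1% rose and 31.4% differed. The smallest p values were those of NIMIN1 (-1.11), PBS3 (-0.41) and EDS1 (0.53), with adjusted p of 3.26e-05, 0.00191 and 0.0114.

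Genes with DUF26 domains outside the 39 were counted in the same way. Of 45 other DUF26 genes 16 were tested, and 6 rose and 0 fell in dvl1-1D, with a median of 0.40, where 16.7% of all tested genes rose and 30.8% differed. AT5G48540 (0.50 ± 0.09, adjusted p = 0.0013), AT3G22000 (0.80 ± 0.19, adjusted p = 0.00545) and AT3G21960 (0.57 ± 0.15, adjusted p = 0.00919) had the smallest p. Of 7 tested plasmodesmata-located DUF26 proteins, which sit at cell-to-cell channels, HWI1 rose (0.40 ± 0.10, adjusted p = 0.00816), PDLP1 fell (-0.35 ± 0.11, adjusted p = 0.0236) and PDLP2 had -0.12 (adjusted p = 0.159). Of 4 CRK genes outside the 39, 2 were tested and 0 passed by limma, with 0 at an unadjusted p under 0.05. CRK4 had 0.87 ± 0.43 (adjusted p = 0.147), and AT4G23170, named EP1 and located within the span of the tandem cluster, had -0.19 ± 0.15 (adjusted p = 0.362). In 35S:DVL8 none of these DUF26 lists gave a call by limma, while 1 gene each of the other DUF26 genes and the outside CRKs had an unadjusted p under 0.05. There 0.138% of all tested genes passed and 10.5% had such an unadjusted p.

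Some markers of other tissues also differed in dvl1-1D, where 16.7% of all tested genes rose and 30.8% differed in either direction. Higher were 2 of 2 nectary, 1 of 5 tapetum, 2 of 6 pollen, 1 of 4 senescence and 2 of 8 floral markers. In each list 0 fell. In lists this short, these counts cannot be told apart from the share over all genes, and no list was tested as a set. Both nectary markers rose, SWEET9 by 0.97 (adjusted p = 3.88e-05) and CRC by 0.57 (adjusted p = 0.000256), and their summed level was 104.6 to 111.5 RPKM in dvl1-1D, against 57.7 to 60.4 RPKM in wild type. Of the 5 tapetum markers GRP17 rose, at 672 to 825 RPKM in dvl1-1D, against 409 to 492 RPKM in wild type (0.75, adjusted p = 0.00015). The other 4 summed to 168 to 232 RPKM in dvl1-1D, against 178 to 220 RPKM in wild type, and these ranges overlapped. The next smallest p in that list were those of AT5G07230 (adjusted p = 0.612) and A7 (adjusted p = 0.689). The 6 pollen markers summed to 480.9 to 656.9 RPKM in dvl1-1D, against 422.9 to 464.6 RPKM in wild type, with TIP1;3 (0.65, adjusted p = 0.00331) and PPME1 (0.36, adjusted p = 0.0491) higher and AtVEX1 at an adjusted p of 0.0826. Senescence markers summed to 493.6 to 614.5 RPKM in dvl1-1D and 376.2 to 519.0 RPKM in wild type. In that list 1 of 4 rose, SAG21 (0.45, adjusted p = 0.00737), while SAG13 and SAG12 had adjusted p of 0.654 and 0.791. In library 4 of the rtfl9 quintuple the senescence sum was 84.0 RPKM. Of 8 floral markers, STM (0.31, adjusted p = 0.000393) and AG (0.38, adjusted p = 0.00043) rose and LFY had an adjusted p of 0.245. No nectary, tapetum, pollen or senescence marker was at 0 in any library, and the part of these tissues in the CRK values was not tested.

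Returning to the promoters, the 7 members that rose in dvl1-1D all held at least 1 TTGAC core in the 300 bases before the gene. The count was 8 of the 13 other tested members and 14 of the 19 members under the filter. Over the family the share was 74.4%, and over protein-coding genes it was 50.4%. CRK5 had 4 cores, CRK14 had 3, CRK15 had 2 and CRK10 had 1. CRK18, which did not rise in dvl1-1D, had 3. For CRK14 and CRK15 the annotated exons hold coding sequence only (1977 and 1884 bases), so their windows end at the start codon. The windows of CRK16 and CRK28 lie inside the genes CRK17 and CRK29, and that of CRK15 reaches into CRK16. As every called member was chosen by its values, the counts are descriptions without a test.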

How the data were processed

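RNA sequencing of inflorescences was deposited for 15 libraries, 3 in each of 5 groups, grouped by the genotype in the labels. The series had 20 samples, and the authors left out 5 as outliers, 1 per group, by a criterion not given in the sources used here. Replicates are called independent in the series text. The deposited values were RPKM per gene, which the authors calculated. Per the submitters' processing notes, the tools were Cutadapt, HISAT2 and HTSeq (no versions given). Per the deposited table's name, strand was not used in counting. The sources used here do not give the authors' genome build. Names, coordinates and sequences were taken from the RefSeq annotation and genome of TAIR10.1 by locus identifier, which matched 37051 of 37336 identifiers and all 39 members.

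Whole reads were recovered from the RPKM steps for all 29911 genes above 0 (100% of them within 0.005 of a read), and 73.5% of the implied lengths equalled the exon union. The test was limma 3.58.1 (R 4.3.3) on log2(RPKM + 1) with its trend option, fitting the 5 group means together. It covered the 20223 genes that reached 1 RPKM in 3 or more libraries. A fold change on this scale understates the change of low genes. P-values are two-sided and were adjusted by Benjamini-Hochberg, separately for each comparison over the whole table. The threshold was 0.05. There were 7 comparisons, and those against wild type share its libraries. The procedure was also run on simulated reads, with the same spread setting for every gene and no deviating library. That run therefore does not speak to the spread in these data. Errors are SE for log2 fold changes and SD for levels.

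The members, the gene lists and the rule for named genes were chosen with earlier results of these data known. That rule accounts for all 39 members, gives each library for members that passed in at least 1 comparison and for the 5 with the highest mean, names the 3 genes with the smallest p in each list for dvl1-1D, and shows promoters of the 4 members that passed most often. The lists were pattern receptor and oxidative burst genes, salicylate and defence, senescence, floral organ and meristem, mature pollen, tapetum, nectary, plasmodesmata-located DUF26 proteins, CRK genes outside the 39 and other DUF26 genes. Alternatives covered the pseudocount, the filter, the scaling, the samples fitted, the replicate block, voom on recovered reads and each library left out. Leaving 35S:DVL8 library 2 out of comparisons it is no part of, leaving it out with rtfl9 quintuple library 4, and array weights were added after seeing the data.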

Additional observations from a re-analysis of the deposited data

Results flagged for a closer look

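In 5 members the change against wild type differed between dvl1-1D and 35S:DVL8 by the test of the difference itself (limma, both lines share the wild-type libraries). These are 5 of 20 tested members, where 32.4% of all tested genes differed between the lines, so the count is no larger a share than over all genes. The difference, dvl1-1D minus 35S:DVL8, was 0.575 for CRK2, 0.362 for CRK11, 0.622 for CRK41, 0.233 for CRK29 and -0.847 for CRK18 on the log2(RPKM + 1) scale. For CRK2 the changes themselves were 0.69 in dvl1-1D and 0.12 in 35S:DVL8. For CRK18 they were -0.12 in dvl1-1D and 0.73 in 35S:DVL8, so this member alone of the 5 had its larger change in 35S:DVL8. With library 2 of 35S:DVL8 left out, CRK18 still differed by -0.68 (adjusted p = 0.00668), CRK2 by 0.64, CRK11 by 0.44 and CRK41 by 0.83, while CRK29 differed by 0.25 and no longer passed (adjusted p = 0.072).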

How the results depend on the processing

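The called changes of single members and the change of CRK18 in 35S:DVL8 kept their direction under the alternatives run. So did the comparison of cluster and other members by level, where leaving out libraries and medians of levels were tried. By the median change of tested members it did not. In dvl1-1D this was 0.299 in the cluster and 0.265 outside it, but 0.51 and 0.572 with voom. Small changes that did not pass did turn. Without library 2 of 35S:DVL8, 5 of the 20 changes in that line changed sign (CRK3, CRK14, CRK17, CRK36 and CRK41), and the median in the dvl1 quintuple was -0.002 but 0.031 with array weights. The count of members that differed between dvl1-1D and wild type was 7 (30.8% of all tested genes), and 11 with both 35S:DVL8 library 2 and rtfl9 quintuple library 4 left out (33.2%) or with array weights (35.9%). It ran between 3 (23.7%) and 11 (31.4%) with 1 library left out. For dvl1-1D against 35S:DVL8 the count was 5 (32.4% of all tested genes), but 3 when only these groups were fitted (25.4%). It was 11 with both libraries left out (29.5%), and it ran between 3 and 9 with 1 library left out (25.5% to 28%). For 35S:DVL8 against wild type it was 0 (0.138%), and 1 (CRK18) with voom (1.19%) or array weights (1.51%), with a range of 0 to 1 with 1 library left out. For both overexpression lines against both quintuples it was 4 (32%), and 1 with both libraries left out (29.3%). With 1 library left out the range was 3 to 7 (25.2% to 31.1%). Voom called 241 genes of the whole table in 35S:DVL8 against wild type, where limma on log2(RPKM + 1) called 28. The quintuples gave 0 calls in their 3 comparisons under all settings. The cause of these shifts was not tested.

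Replicate numbers recur between groups, but the labels do not say that they mark a shared batch. Deviations of same-numbered libraries correlated between -0.255 and 0.381 over 23 pairs, 3 of them above 0.1. The highest was that of library 4 of the dvl1 quintuple with library 4 of the rtfl9 quintuple. With 3 libraries per group, such correlations cannot decide whether the numbers mark a shared batch. With the number as a replicate block, the count for both overexpression lines against both quintuples was 1 (CRK2) in place of 4, where 22% of all tested genes passed. CRK5, CRK15 and CRK18 had adjusted p of 0.0651, 0.127 and 0.0533 with it. The block changed the count in no other comparison.

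The log2 ratio of the cluster sum to wild type, minus that of the other members, was 0.04 for the dvl1 quintuple, and 0.418 when medians over members replaced sums. For the rtfl9 quintuple it was 0.13, and 0.498 by medians. With 1 library left out it ran between 0.03 and 0.13 in dvl1-1D, 0.20 and 0.48 in 35S:DVL8, 0.008 and 0.08 for the dvl1 quintuple, and 0.09 and 0.18 for the rtfl9 quintuple. Members with few reads, such as CRK33 with 13 in all libraries, allow no statement about change at this depth. Leaving out outliers, as the authors did, can narrow the spread within groups.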
